A study of Mus musculus with 4 samples.

Results

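The genes described here are 34 mouse genes of the p53 pathway and of intrinsic (mitochondrial) apoptosis: p53 itself and its inhibitors, targets of p53 in cell cycle arrest, stress defence, DNA repair and cell death, the BCL-2 family, and the apoptosome. They were chosen by name from these pathways, and all 34 were found by symbol among the 51826 gene identifiers of the count table. RNA was sequenced from C2C12 cells, an established line of mouse myoblasts, kept in growth medium for 6 h with vehicle or with recombinant GDF10, a growth factor of the TGF-beta superfamily that cells secrete. Each group held 2 libraries, named here vehicle 1, vehicle 2, GDF10 1 and GDF10 2, which the labels call biological replicates. No genotype or other agent is named, no GDF10 dose is stated in the sources used here, and nothing says whether the replicates came from separate cultures, so the p-values below measure only the spread between these 4 libraries. One line grown in culture stands for myoblasts here, without the fibres and other cells of muscle.

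p53 is a transcription factor that is made steadily and destroyed as steadily, because its own target MDM2 marks it for the proteasome and MDM4 covers its activation domain. DNA damage or other stress frees it, mainly at the level of the protein, and it then raises genes that stop the cell cycle, repair DNA or start apoptosis. In intrinsic apoptosis BH3-only proteins (BIM, PUMA, NOXA, BID) neutralise the survival proteins BCL-2 and BCL-XL or switch on BAX and BAK, which open the outer mitochondrial membrane; released cytochrome c then joins APAF1 to activate caspase-9. TGF-beta superfamily signals can reach this system in many cell types through SMAD control of BIM and other death genes, and in myoblasts p53 and its targets also act when cells leave the cycle to differentiate.

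Target genes of p53 carry a response element made of a pair of 10-base half-sites. RefSeq promoter sequences (build GRCm38.p6, 250 bases before to 50 bases after each transcription start) were available for 26 of the 34 genes, in 37 windows. They were searched for the p53 consensus element, 2 half-sites with a spacer of at most 13 bases and at most 1 mismatch in all. No mismatch was allowed at the C and the G in the core of each half-site. The element reads alike on both strands. A match was found for 2 of the 26 genes, or 7.69%, against 194 of the 27025 genes of the same RefSeq table, or 0.718%. Both matches are printed with 20 bases on each side, as examples of sequence close to the consensus element. Capitals mark the match. The stretch printed for Ccng1, flanks included, lies on the minus strand at chr11:40755442-40755501. Its element begins 195 bases before the RefSeq transcription start of that window. The stretch printed for Gtse1, flanks included, lies on the plus strand at chr15:85859925-85859984. Its element begins 1 base before the RefSeq transcription start of that window. The gene model that gave the exon length of Gtse1 starts farther upstream, at 85859745, so the element lies inside that model.
Ccng1: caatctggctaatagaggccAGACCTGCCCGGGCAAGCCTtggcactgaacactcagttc
Gtse1: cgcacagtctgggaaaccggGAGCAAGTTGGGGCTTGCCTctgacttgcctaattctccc
A match is a description of these windows and no evidence of binding, and elements in introns or farther upstream were not searched.

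The libraries held 29641165 to 35597310 counts, and levels are given as CPM, each count scaled to the size of its library. Over all genes tested, log2 CPM correlated at Pearson 0.987 in the vehicle pair, at 0.984 in the GDF10 pair and at 0.983 to 0.986 between libraries of different groups, across genes, which are not independent replicates. Of the 34 genes 33 were tested; Perp, a p53 target of the cell membrane, had 0 counts in each library, which allows at most 0.0840 to 0.101 CPM at 3 counts, counting error only. The 7 myoblast markers were present in each library and summed to 2194 to 2290 CPM, with Myod1 at 1634 to 1982 counts. A protocol label names longissimus dorsi muscle where the other labels name C2C12. Mature fibre markers summed to 73.4 to 84.8 CPM over 7 genes, of which Actn3 gave 64.9 to 77.2 CPM (2027 to 2561 counts); Ckm had 131 to 181 counts, Myh1 30 to 76, Mb 47 to 92, and Myh2, Myh4 and Pvalb at most 7, with Myh4 at 0 in 3 of 4 libraries. Immune and blood markers summed to 3.80 to 4.90 CPM over 5 genes, with Adgre1 and Hbb-bs at 0 in each library, and 4 endothelial markers to 2.16 to 2.87 CPM. Of 6 fibroblast markers, which summed to 4220 to 4640 CPM, Col1a1 and Col1a2 gave most of the level, Pdgfra had 1760 to 2195 counts and Dcn 922 to 1194, and Lum and Thy1 had at most 2 counts per library. In bulk RNA fewer cells with a transcript and less of it per cell cannot be told apart.

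The comparison asked which of these genes differ in myoblasts after 6 h with GDF10. None of the 33 tested genes passed an adjusted p of 0.05 (edgeR's quasi-likelihood test, Benjamini-Hochberg over all 15467 genes tested), where 0.162% of all genes tested did, 0.084% higher and 0.0776% lower; DESeq2 and limma-voom also called 0. One gene, Bcl2l11, which encodes the BH3-only protein BIM, reached an unadjusted p under 0.05, against 5.94% of all genes tested, and was lower with GDF10; 2.44% of all genes tested had such a p and were higher, and 3.49% were lower. The log2 fold change was above 0 for 13 genes and below 0 for 20, with a median of −0.06 and a median absolute value of 0.13, beside a median of 0.0029 and a median absolute value of 0.12 over all genes tested. The GDF10 libraries lay wholly above or wholly below the vehicle libraries for 16 of the 33 genes, 8 in each direction, or 48.5%, against 38.2% of all genes tested.

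**Figure D1:**
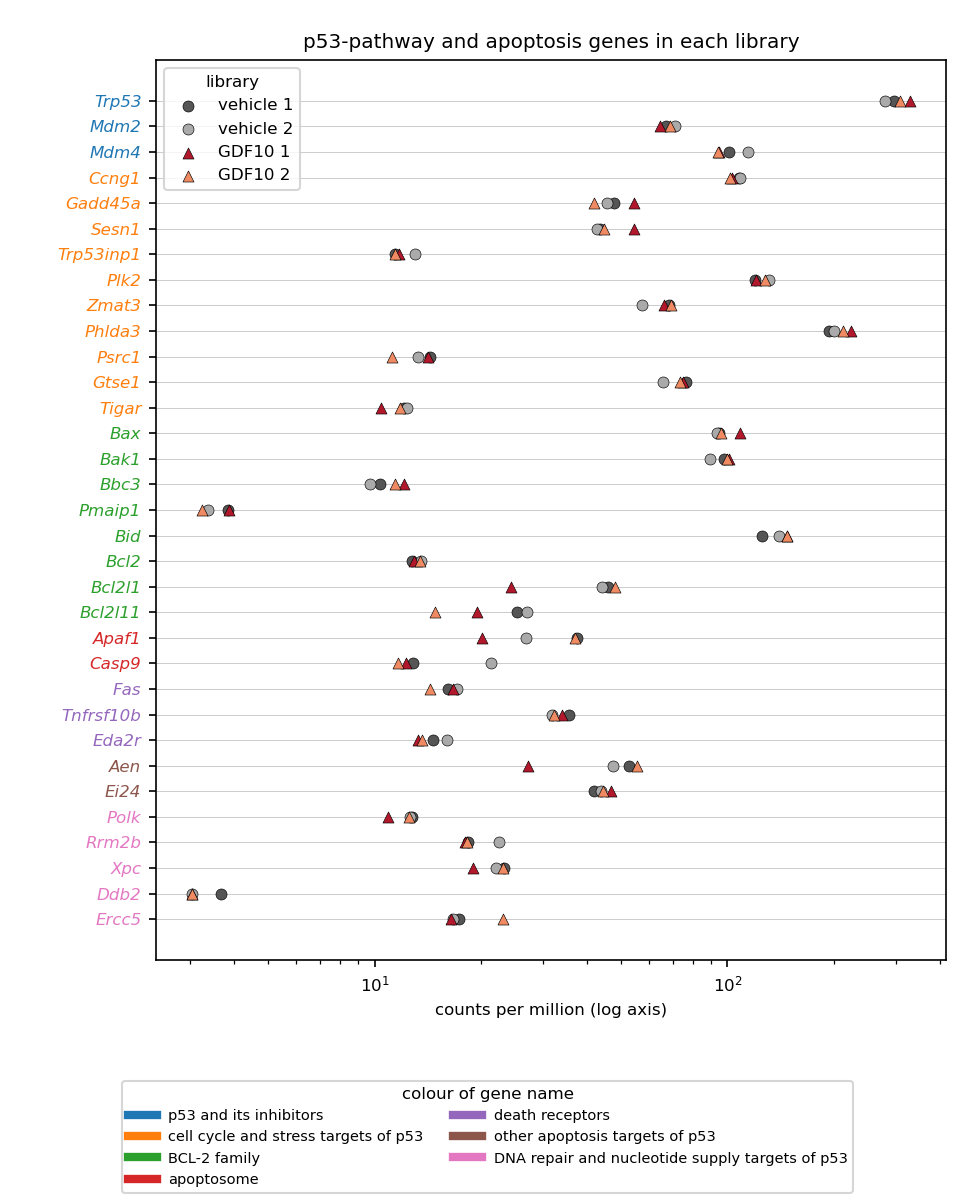
CPM of each of the 33 tested genes (log axis) in the 4 libraries, grouped by role. Most genes keep their libraries close together; Bcl2l1, Aen and Apaf1 have GDF10 1 as the lowest library, and Casp9 has vehicle 2 as the highest.

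Per kilobase of exon the genes spanned from 1.17 CPM per kb for Ddb2 to 133 for Phlda3, as means over the 4 libraries. Phlda3, a p53 target that restrains AKT at the membrane, was the most abundant, at 125 and 129 CPM per kb with vehicle and 143 and 136 with GDF10. Trp53 followed at 74.9 CPM per kb and the pore former gene Bax at 62.2, and the libraries of these first 3 genes did not overlap. Bak1 at 40.3 and Bid at 39.5 CPM per kb did overlap in level. Ccng1, Plk2, Gadd45a and Gtse1, cell cycle and stress targets, formed a run of overlapping neighbours from 29.97 to 26.4 CPM per kb. The survival gene Bcl2l1 stood at 8.86 CPM per kb and Bcl2, its relative, at 1.44. At the low end were Pmaip1, which encodes NOXA, at 1.31, and Ddb2, a damage sensor of nucleotide excision repair, at 1.17, and neighbours in this order overlapped for most genes below rank 12.

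Trp53, the p53 gene (ENSMUSG00000059552; mm10 chromosome 11, 69580359 to 69591873), stood at 297 and 279 CPM in vehicle 1 and 2 and at 329 and 308 CPM in GDF10 1 and 2. The GDF10 libraries were both above the vehicle libraries. The gap between the groups was smaller than the difference between the replicates of either group. The means were 288 ± 12.3 and 318 ± 14.98 CPM (SD, n = 2 each), and the log2 fold change was 0.14 ± 0.07 (standard error, 95% interval −0.03 to 0.32; edgeR adjusted p = 0.825).

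Mdm2, the ubiquitin ligase gene that p53 induces and whose product destroys p53, had 66.9 and 71.2 CPM with vehicle and 64.2 and 68.6 CPM with GDF10, and its groups overlapped. Its log2 fold change was −0.06 (95% interval −0.26 to 0.15), so that a rise above 0.15 lay outside the interval. The ratio of Mdm2 to Trp53 counts was 0.226 and 0.255 with vehicle and 0.195 and 0.223 with GDF10. Mdm4, the partner that blocks p53 without destroying it, stood at 101 and 115 CPM with vehicle and 94.6 and 94.2 CPM with GDF10. Both GDF10 libraries were lower, with a log2 fold change of −0.19 (95% interval −0.39 to 0.01; edgeR adjusted p = 0.825). Mdm4 has the longest exon sequence of the 34 genes, 14798 bases, and with the exon length trend of each library removed its value was −0.05, a shift by more than 1.5 times.

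Among the 34 genes are 10 targets of p53 in cell cycle control and stress defence. They showed 5 positive and 5 negative log2 fold changes, from −0.13 to 0.20, with a median of 0.02. Of them 0 passed in either direction. Cdkn1a, another arrest target of p53, was in none of the lists read here. Ccng1, which encodes cyclin G1 and has one of the matches printed above, had 108 and 109 CPM with vehicle and 103 and 102 CPM with GDF10. Its groups did not overlap, yet the log2 fold change was only −0.08 (95% interval −0.25 to 0.09). Phlda3 had 194 and 200 CPM with vehicle and 224 and 213 CPM with GDF10, both GDF10 libraries higher, with a log2 fold change of 0.14 (95% interval −0.02 to 0.31; edgeR adjusted p = 0.825).

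Sesn1, which encodes sestrin 1, an antioxidant protein that restrains mTORC1, had 43.5 and 42.7 CPM with vehicle and 54.5 and 44.8 CPM with GDF10. GDF10 1 was high and GDF10 2 lay just above the vehicle libraries. Gadd45a, a growth arrest and damage response gene, stood at 47.6 and 45.5 CPM with vehicle and 54.5 and 41.9 CPM with GDF10, so that the GDF10 libraries lay on either side of the vehicle libraries; it shares 337 exon bases with E230016M11Rik on the opposite strand, which had 20 to 35 counts per library. Plk2, a polo-like kinase gene, had 120 and 131 CPM with vehicle and 121 and 128 CPM with GDF10, with a log2 fold change of −0.01 (95% interval −0.20 to 0.18). Gtse1, whose product holds p53 in check in G2, had one of 0.06, and Zmat3, a p53 target that binds RNA, one of 0.10. Psrc1, a spindle gene that p53 regulates, Tigar, which lowers glycolysis, and Trp53inp1, a stress protein gene that promotes p53 phosphorylation, had −0.13, −0.13 and −0.08.

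**Figure D2:**
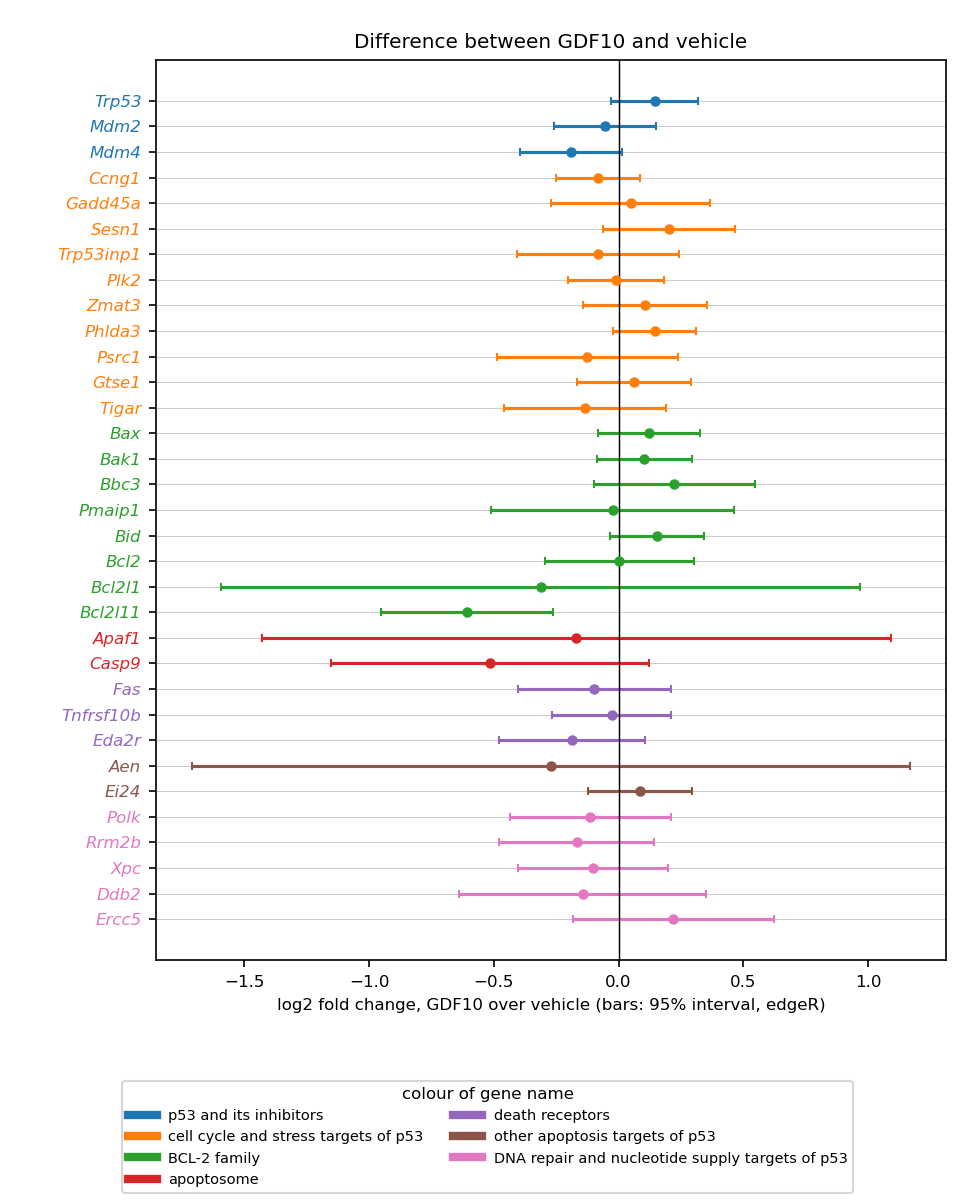
Log2 fold change of each tested gene, GDF10 over vehicle, with its 95% interval from edgeR. The interval of Bcl2l11 lies wholly below 0, at −0.95 to −0.26, and those of Bcl2l1, Apaf1 and Aen are the widest.

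Of the 8 genes of the BCL-2 family 5 had positive and 3 negative log2 fold changes, and 0 passed. Bax, a pore former gene, had 94.4 and 93.5 CPM with vehicle and 109 and 95.7 CPM with GDF10, and Bak1, the other pore former gene, had 97.9 and 89.1 CPM with vehicle and 101 and 99.7 CPM with GDF10. Bid, the BH3-only protein that caspase-8 cleaves, had 126 and 140 CPM with vehicle and 147 and 148 CPM with GDF10, and Bbc3, which encodes the p53 target PUMA, 10.4 and 9.73 CPM with vehicle and 12.1 and 11.4 CPM with GDF10. These are the 4 of the 8 genes in which both GDF10 libraries were above both vehicle libraries, where 18.8% of all genes tested were. In 1 of the 8 both were below. The 4 genes have exon lengths of 1576 to 3550 bases, under the median of 4586 of the 33. GDF10 1 ran higher in shorter genes, as described below, and the part of this in the 4 genes was not tested. Their log2 fold changes were 0.12, 0.10, 0.15 and 0.22, and edgeR's adjusted p was 0.825 to 0.852. The 95% intervals of these 4 genes all reached below 0. With 1 library left out the values ran from 0.03 (without GDF10 replicate 1) to 0.21 (without GDF10 replicate 2) for Bax, from 0.04 (without vehicle replicate 2) to 0.17 (without vehicle replicate 1) for Bak1 and from 0.08 (without vehicle replicate 1) to 0.23 (without vehicle replicate 2) for Bid. Bid shares 628 exon bases with Bcl2l13 on the opposite strand, whose log2 fold change was −0.04, and without a stated use of strand their reads cannot be told apart; with overlapping genes summed the value was 0.09. Bak1 shares 437 exon bases with Ggnbp1 on the opposite strand, which had 33 to 57 counts per library, and its summed value was 0.11.

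Bcl2l11 (ENSMUSG00000027381; chromosome 2, 128126038 to 128162547) went the other way. BIM binds the survival proteins tightly and is a main trigger of death after loss of growth factors. Vehicle 1 and 2 gave 902 and 799 counts of it and GDF10 1 and 2 gave 583 and 518, or 25.2 and 27.0 CPM and 19.5 and 14.9 CPM. Both GDF10 libraries were lower than both vehicle libraries, and GDF10 2 was the lower of them. The means were 26.1 ± 1.24 and 17.2 ± 3.25 CPM (SD, n = 2 each), a 1.52-fold difference, and the log2 fold change was −0.61 ± 0.15 (standard error, 95% interval −0.95 to −0.26; edgeR unadjusted p = 0.00416, adjusted p = 0.620). The gene thus did not pass, and the adjusted p ran from 0.0392 to 0.9999 over the 15 alternatives, with 0.171 in DESeq2. It passed in 1 of them, the fit without GDF10 replicate 1, at a log2 fold change of −0.81; without GDF10 replicate 2 the value was −0.42 (adjusted p = 0.182). The sign was negative in each of the 15, which is nearly given where the groups do not overlap. No annotated gene shares exon bases with Bcl2l11. Its exon length is 8029 bases, and with the exon length trend of each library removed the value was −0.53 (adjusted p = 0.818).

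Pmaip1 was low, at 3.83 and 3.38 CPM with vehicle and 3.87 and 3.24 CPM with GDF10, and the groups overlapped. The survival gene Bcl2 was the most even of the 33 in fold change, with 12.8 and 13.6 CPM with vehicle and 12.9 and 13.4 CPM with GDF10 (log2 fold change 0.0019, 95% interval −0.30 to 0.30).

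Bcl2l1, which encodes BCL-XL (ENSMUSG00000007659; chromosome 2, 152780668 to 152831728), had 45.9 and 44.1 CPM with vehicle, 24.4 CPM in GDF10 1 and 48.1 CPM in GDF10 2. Only GDF10 1 was low, and the ratio of Bcl2l1 to Bax counts was 0.486 and 0.472 with vehicle and 0.224 and 0.502 with GDF10. The log2 fold change was −0.31 with a 95% interval of −1.59 to 0.97. Without GDF10 replicate 2 it was −0.89 (edgeR adjusted p = 0.00830) and without GDF10 replicate 1 it was 0.09 (adjusted p = 0.991), so that 1 library set the direction.

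GDF10 1 was also the lowest library for Aen and Apaf1. Aen, a nuclease that p53 induces during apoptosis (ENSMUSG00000030609; chromosome 7, 78895854 to 78911209), had 52.7 and 47.3 CPM with vehicle, 27.3 CPM in GDF10 1 and 55.5 CPM in GDF10 2. Its log2 fold change was −0.27, at −0.87 without GDF10 replicate 2 (edgeR adjusted p = 0.0113) and 0.15 without GDF10 replicate 1 (adjusted p = 0.991). Apaf1, the scaffold of the apoptosome (ENSMUSG00000019979; chromosome 10, 90989311 to 91082770), had 37.5 and 26.9 CPM with vehicle, 20.2 CPM in GDF10 1 and 37.0 CPM in GDF10 2. Here the vehicle libraries differed from each other as well, and the log2 fold change was −0.17 (95% interval −1.43 to 1.09). Without GDF10 replicate 2 it was −0.67, and without vehicle replicate 1 or GDF10 replicate 1 it was 0.09 and 0.20. No annotated gene shares exon bases with Bcl2l1, Aen or Apaf1.

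Casp9, the initiator caspase that the apoptosome activates (chromosome 4, 141793612 to 141815976), turned on a vehicle library instead. It had 12.9 CPM in vehicle 1, 21.4 CPM in vehicle 2 and 12.2 and 11.7 CPM with GDF10. Vehicle 2 was high, and the other three were alike. The log2 fold change was −0.51 (95% interval −1.15 to 0.12), −0.11 without vehicle replicate 2 and −0.84 without vehicle replicate 1 (edgeR adjusted p = 0.303).

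**Figure D3:**
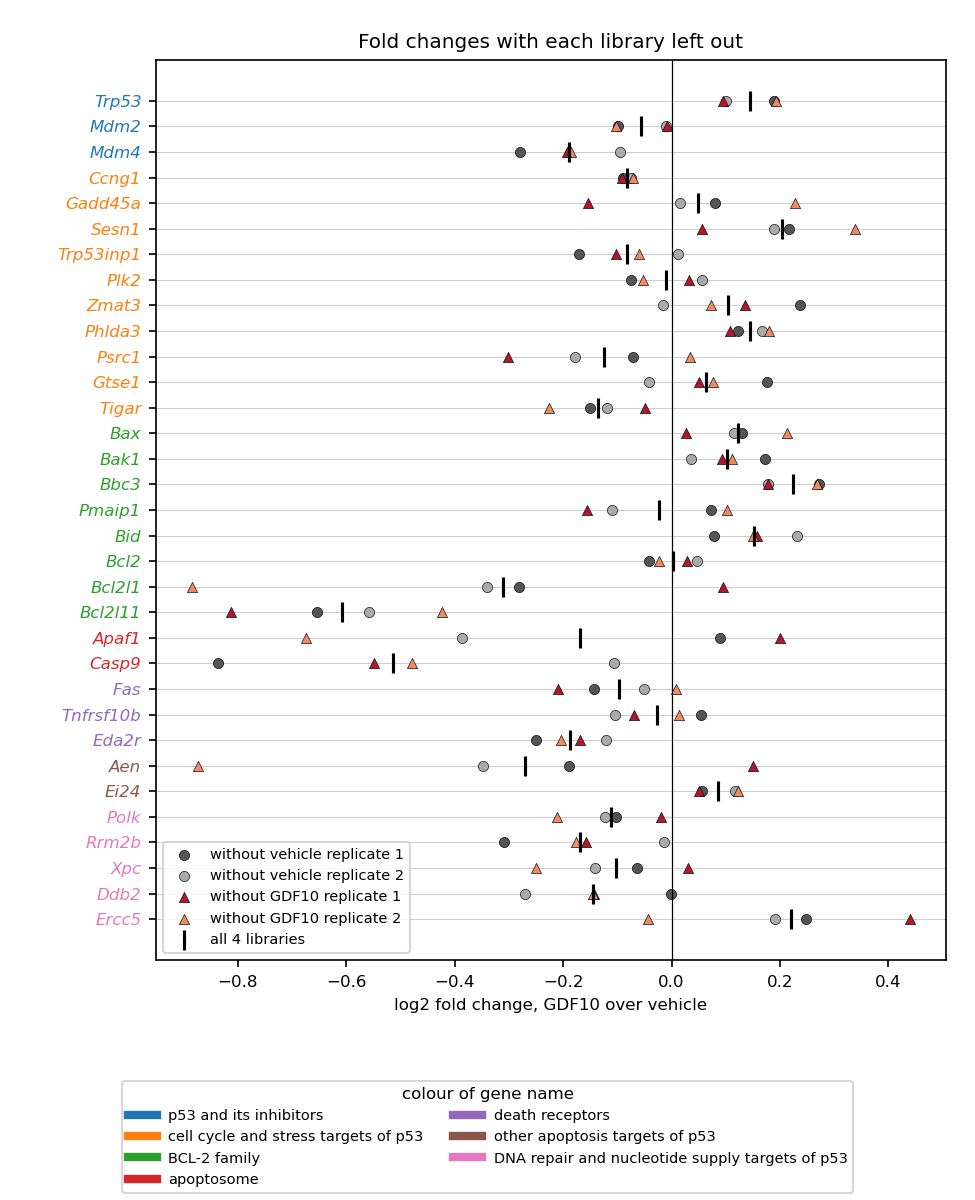
Log2 fold change of each tested gene with all 4 libraries (vertical mark) and with each library left out. Bcl2l1, Aen and Apaf1 cross 0 when GDF10 replicate 1 is left out, Casp9 moves from −0.51 to −0.11 without vehicle replicate 2, and Bcl2l11 stays between −0.81 and −0.42.

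Differences over 0.5 in log2 CPM between replicates of 1 group were seen in these 4 genes, Bcl2l1, Aen, Apaf1 and Casp9, and thus in 12.1% of the 33. Among the 11388 tested genes at least as abundant as the least abundant of the 33, 8.44% showed one. GDF10 1 was the lowest library for 11 of the 33 genes and for 30.5% of all genes tested, and its gap to the next library was over 0.5 for Bcl2l1 and Aen and for 3.44% of all genes tested.

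The 3 death receptor genes had negative log2 fold changes, none passing. Fas, the receptor for FAS ligand, had 16.1 and 17.2 CPM with vehicle and 16.7 and 14.4 CPM with GDF10, and Tnfrsf10b, the mouse TRAIL receptor, 35.6 and 31.9 CPM with vehicle and 34.03 and 32.2 CPM with GDF10. In both the groups overlapped. Eda2r, a receptor for ectodysplasin A2 that p53 induces, had 14.7 and 16.05 CPM with vehicle and 13.3 and 13.7 CPM with GDF10. The GDF10 libraries were both lower, with a log2 fold change of −0.19 (95% interval −0.48 to 0.11). Ei24, a p53-induced gene of the endoplasmic reticulum, had 42.0 and 43.8 CPM with vehicle and 46.6 and 44.4 CPM with GDF10, a log2 fold change of 0.09.

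Of the 5 genes of DNA repair and nucleotide supply 4 had negative log2 fold changes and 0 passed. Rrm2b, which encodes the p53-inducible subunit of ribonucleotide reductase, had 18.4 and 22.6 CPM with vehicle and 18.1 and 18.3 CPM with GDF10. The vehicle libraries were both higher, though vehicle 1 by very little. Polk, a translesion polymerase gene, had 12.8 and 12.6 CPM with vehicle and 10.9 and 12.5 CPM with GDF10, and Xpc, which recognises lesions in nucleotide excision repair, 23.3 and 22.1 CPM with vehicle and 19.1 and 23.2 CPM with GDF10. In both genes GDF10 1 was the lowest library. Ddb2 rested on few reads, 131 and 90 counts under vehicle against 91 and 106 under GDF10, at a log2 fold change of −0.14 (95% interval −0.64 to 0.35); it shares 652 exon bases with Acp2 on the opposite strand, which had 1383 to 1748 counts per library, and with overlapping genes summed the value was −0.0027. Ercc5, the repair endonuclease gene, was the exception in sign, with 17.4 and 16.7 CPM with vehicle and 16.5 and 23.1 CPM with GDF10. GDF10 2 alone was high, and the log2 fold change went from 0.22 to 0.44 without GDF10 replicate 1 and to −0.04 without GDF10 replicate 2.

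Differences among the 33 genes went with gene length in GDF10 1. The deviation of that library from the mean of the 4, in log2 CPM, had a Spearman correlation with exon length of −0.62 over the 33 genes and −0.33 over 15431 genes tested, while over the 33 genes the correlations were 0.14, 0.35 and 0.13 in vehicle 1, vehicle 2 and GDF10 2. These are correlations across genes of 1 library, which are not independent replicates. In each gene the deviations of the 4 libraries sum to 0. A negative trend in GDF10 1 therefore pushes the other libraries toward positive ones, and the 4 correlations are not separate observations. Of the 17 genes with an exon length of at most 4586 bases 9 had a positive log2 fold change, with a median of 0.05, and of the 16 longer ones 4 did, with a median of −0.11. With the exon length trend of each library removed, the median of the 33 was −0.04 and that of all genes tested 0.02, with 13 positive and 20 negative and 0 passing. In that fit Bcl2l1, Aen and Apaf1 stood at −0.31, −0.25 and −0.10. The part of length in single genes was not tested further.

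**Figure D4:**
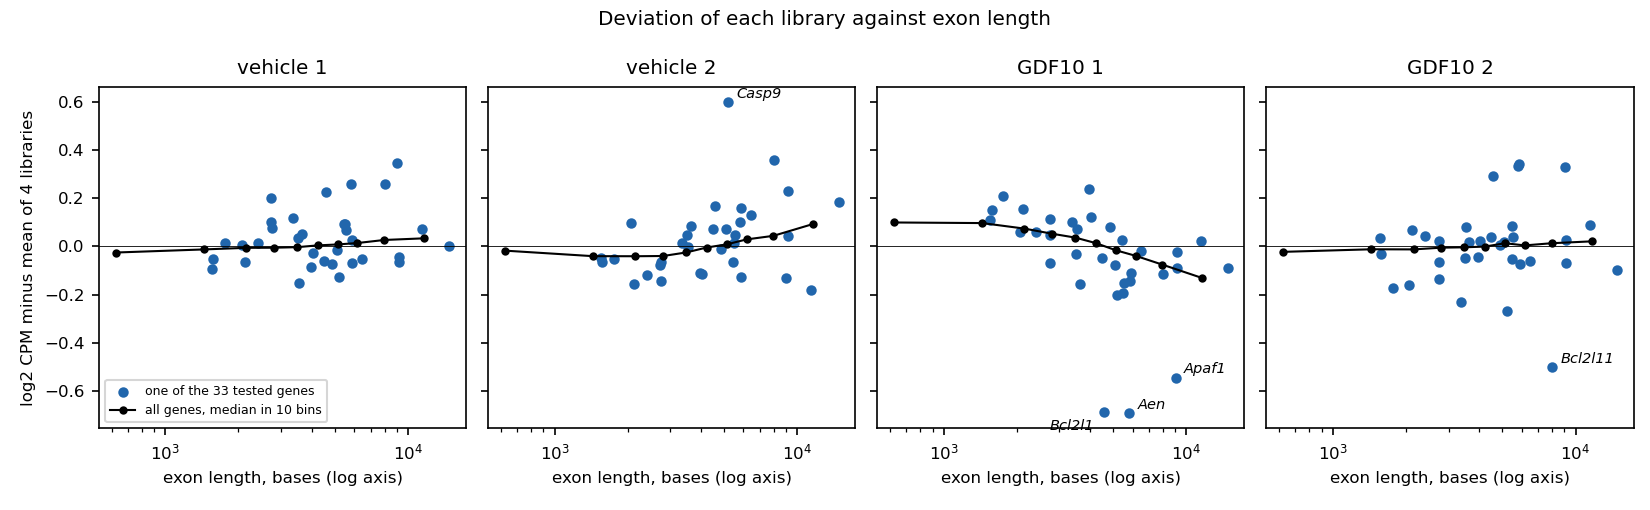
Deviation of each library from the mean of the 4 (log2 CPM) against exon length (log axis) for the 33 genes, with the median of all genes tested in 10 bins of length. In GDF10 1 the bin medians run from 0.10 to −0.13, and Bcl2l1, Aen and Apaf1 lie far below that line.

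Genes around these pathways were read from 4 further lists, in each of which 0 genes passed, while the signs differed from list to list. Of 27 further p53 targets 25 were tested and 0 passed, with 16 positive log2 fold changes, 9 negative, and a median of 0.07. Sulf2, an extracellular sulfatase gene, had the lowest p, with 47.2 and 48.0 CPM with vehicle and 59.9 and 55.7 CPM with GDF10 (log2 fold change 0.28, edgeR unadjusted p = 0.0146, adjusted p = 0.815). It shares 154 exon bases with Ncoa3 on the opposite strand, which had 801 to 995 counts per library, and with overlapping genes summed the value was 0.15 (edgeR unadjusted p = 0.0967). Steap3, a metalloreductase gene, Dcxr, a xylulose reductase gene, and Ak1, the adenylate kinase gene, had 0.18, 0.31 and 0.15. Each had both GDF10 libraries above both vehicle libraries, as did 5 of the 25, where 18.8% of all genes tested did.

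Of 12 other BCL-2 family genes 9 were tested and 0 passed, with 5 positive and 4 negative values and a median of 0.0038. Mcl1, a short-lived survival protein gene, was even at 168 and 162 CPM with vehicle and 168 and 162 CPM with GDF10. Bok, a BAX relative, Bnip3, a mitophagy gene, Bmf, a BH3-only gene, and Bcl2l2, a survival gene, had log2 fold changes of 0.15, −0.19, 0.14 and 0.49. In Bcl2l2 vehicle 1 was low, at 15.4 CPM, beside 52.5 CPM in vehicle 2 and 45.01 and 50.1 CPM with GDF10. Bcl2l2 shares exon bases with Gm20521, which had 46 to 86 counts per library. With all tested genes linked to it through shared exon bases summed, which is more than this pair, the value for Bcl2l2 was 0.17. Its log2 fold change was 1.63 without vehicle replicate 2 (edgeR adjusted p = 0.00497) and −0.14 without vehicle replicate 1 (adjusted p = 0.976).

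Of 21 caspases, mitochondrial factors and inhibitors 20 were tested and 0 passed, with 14 positive and 6 negative values and a median of 0.06. Casp6, an executioner caspase gene, had 29.0 and 28.9 CPM with vehicle and 34.6 and 33.02 CPM with GDF10 (log2 fold change 0.22, edgeR unadjusted p = 0.0464, adjusted p = 0.825). Cflar, which encodes the caspase-8 inhibitor FLIP, had 96.99 and 96.2 CPM with vehicle and 83.8 and 90.1 CPM with GDF10 (log2 fold change −0.15, and −0.03 with the exon length trend removed), Dffb, the caspase-activated DNase gene, had one of −0.38, and Htra2, a released mitochondrial protease gene, one of 0.16. Htra2 shares exon bases with Loxl3 and Aup1 on the opposite strand, which had 2336 to 3746 counts per library, and its summed value was 0.12. Cycs, the cytochrome c gene, was at 145 ± 7.43 and 151 ± 6.78 CPM (SD, n = 2 per group).

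Of 19 kinases, cofactors, ligases and relatives of p53, 16 were tested and 0 passed; 2 log2 fold changes were positive and 14 negative, with a median of −0.10, and the GDF10 libraries lay below the vehicle libraries in 7 of the 16, where 19.4% of all genes tested did. Atr, the kinase gene of replication stress, had 29.1 and 32.9 CPM with vehicle and 23.9 and 27.1 CPM with GDF10 (log2 fold change −0.28, edgeR unadjusted p = 0.0440, adjusted p = 0.825). Usp7, a deubiquitinase gene that steadies MDM2 and p53, had 150 and 152 CPM with vehicle and 136 and 134 CPM with GDF10 (log2 fold change −0.17). Atm, the kinase gene of double-strand breaks, and Prkdc, that of end joining, had −0.34 and −0.22. In Atm GDF10 1 was low, at 17.6 CPM against 26.1 to 28.2 CPM in the other libraries. Without GDF10 replicate 1 Atm and Prkdc stood at −0.09 and −0.10, and without GDF10 replicate 2 at −0.66 and −0.34 (edgeR adjusted p = 0.0527 and 0.282). The median exon length of these 16 genes was 8301 bases, beside 4586 for the 33 and 3839 over all genes tested, and their summed level was lowest in GDF10 1, at 700 CPM against 757 to 798 in the other libraries. With the exon length trend of each library removed Atr, Usp7, Prkdc and Atm stood at −0.09, −0.10, −0.10 and −0.26.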

How the data were processed

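RNA from 4 C2C12 libraries, 2 per group, was measured as whole-number read counts per gene, which the authors deposited without normalization. Build mm10 and HISAT2 2.0 are named in the submitters' processing notes, with StringTie 1.3.3b, Trimmomatic 0.36, bedtools 2.26.0 and DESeq2 1.12.4; which of them counted the reads, on what annotation and whether by strand is not given in the sources used here. Reads of overlapping genes may therefore have been split. The control columns, named Con, were matched to the vehicle titles by their numbers.

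GENCODE M21 (GRCm38, the assembly of mm10) held 51633 of 51826 identifiers and gave symbols, positions and exon lengths. Genes were kept by filterByExpr (15467), scaled by TMM (factors 0.995 to 1.004) and compared with glmQLFit and glmQLFTest in edgeR 4.0.16 under R 4.3.3, without covariates; standard errors came from the F statistics. The coefficient of variation between replicates was 14.3%. The test was tried on simulated data. Alternatives used DESeq2 1.42.0, limma 3.58.1, other scalings and filters, dispersions without robust fitting, replicate blocks, fits that leave out 1 library, summed overlapping genes and removal of exon length trends (loess, span 0.3).

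The genes, lists and tests were chosen with earlier results of these data known. The text names the 34 genes, called genes and the 4 of lowest p in each other list, and tested genes sharing exon bases with the 34 or with some of those; Mcl1, Cycs, Xiap, Hipk2 and Diablo were named after their values were seen. No pair of libraries agreed within sampling noise (chi-square over degrees of freedom 13.8 to 27.1).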

Additional observations from a re-analysis of the deposited data

How the results depend on the processing

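The 15 alternatives reuse the same 4 libraries, and where the groups do not overlap, leaving out 1 library can hardly change the sign. Over these alternatives the log2 fold change kept its sign in 18 of the 33 genes. Of the other 15 genes, 13 changed sign only when a library was left out. In fits that kept the 4 libraries the exceptions were Plk2, at 0.00050 with upper quartile scaling, and Bcl2, at −0.0032 with total counts and −0.0010 with a CPM of at least 1 in 2 libraries. With a library left out, the ranges were −0.15 to 0.23 for Gadd45a, −0.17 to 0.012 for Trp53inp1, −0.074 to 0.056 for Plk2, −0.017 to 0.24 for Zmat3, −0.30 to 0.034 for Psrc1, −0.042 to 0.18 for Gtse1, −0.16 to 0.10 for Pmaip1, −0.042 to 0.047 for Bcl2, −0.89 to 0.095 for Bcl2l1, −0.67 to 0.20 for Apaf1, −0.21 to 0.0090 for Fas, −0.10 to 0.054 for Tnfrsf10b, −0.87 to 0.15 for Aen, −0.25 to 0.029 for Xpc and −0.043 to 0.44 for Ercc5. Among the other genes named, values changed sign for Mcl1 (−0.0013 with total counts, −0.012 with exon length trends removed, −0.023 to 0.031 with a library left out), Diablo (−0.065 to 0.087), Bnip3 (−0.37 to 0.019), Bcl2l2 (−0.14 to 1.63) and Xiap (−0.050 to 1.68). In these fits 0 to 2 of the 33 passed (Bcl2l11 without GDF10 replicate 1, Bcl2l1 and Aen without GDF10 replicate 2), 1 to 8 had an unadjusted p under 0.05, where 3.46% to 15.1% of all genes tested did (15.1% in the fit with 8), and 0 to 1 genes of the other lists passed (Bcl2l2 without vehicle replicate 2, Hipk2 at −0.69 without GDF10 replicate 2). The lone library of a group is assumed there to vary like the other group. In the other 11 alternatives 0 of the 33 passed. The number of genes called among all tested, 25, was 65 with DESeq2, 11 with limma-voom, 9 with non-robust dispersions, 13 with overlapping genes summed and 27 to 224 with a library left out; the cause was not tested. With the replicate number as a block 23 genes and 0 of the 33 passed, and 3 of the 33 had an unadjusted p under 0.05 (Bcl2l11, Trp53 and Mdm4) in place of 1, beside 8.52% of all genes tested in place of 5.94%. Nothing states that same-numbered libraries share more than a number. The correlation of their deviations over genes was 0.07, which cannot show whether they do. With 2 libraries per group an exact permutation test cannot go below p = 0.333. Genes near 3 CPM, such as Ddb2 and Pmaip1, rest on 90 to 137 counts per library, and their 95% intervals exceed 0.9 in width.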

Other observations

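Single libraries also stood apart in genes next to these pathways. Xiap, the gene of a direct caspase inhibitor, had 16.8 and 22.9 CPM with vehicle, 19.1 CPM in GDF10 1 and 63.4 CPM in GDF10 2, and its log2 fold change of 1.06 had a 95% interval of −1.94 to 4.06 and went to −0.05 without GDF10 replicate 2. Hipk2, a kinase gene that phosphorylates p53, had 27.1 and 27.6 CPM with vehicle, 16.9 CPM in GDF10 1 and 26.5 CPM in GDF10 2. Diablo, which encodes SMAC, was even at 1234 to 1546 counts, while the overlapping model AC157931.1 held 109 counts in vehicle 1, 91 in GDF10 2 and 0 in the other libraries.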
